A study of Mus musculus with 9 samples.

Results

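The core circadian clock genes were followed in mouse bone marrow-derived macrophages given a chemokine or a control protein. They are the 10 genes Clock, Arntl, Per1, Per2, Cry1, Cry2, Ciart, Nr1d1, Nr1d2 and Dbp, taken by symbol from the deposited count table. All 10 were among its 13593 genes and all 10 passed the filter on low counts. Macrophages were grown for 7 days in medium with 15% supernatant of L929 cells, a fibroblast line that secretes the growth factor M-CSF, from marrow of wild-type C57BL/6 mice aged 6 weeks. The cells then received CCL26, CX3CL1 or bovine serum albumin (BSA, the protein control) at 4 nM for 4 h, with 3 libraries in each group. Per the title, both proteins bind the receptor CX3CR1, so the comparisons ask what each one does to these genes and whether the effects differ. The labels do not state whether replicates came from separate mice or cultures, and p-values then cover no more than library-to-library spread, which could be technical alone. The labels give a single time after treatment and neither a time of day nor a step that sets the clocks of the cells to one phase, so rhythm was not measured.

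In the mammalian clock, CLOCK and BMAL1 (the product of Arntl) form a dimer that binds E-box sequences and switches on the period, cryptochrome, Ciart, Nr1d1, Nr1d2 and Dbp genes. The PER and CRY proteins and CIART feed back to repress that dimer, while the REV-ERB receptors encoded by Nr1d1 and Nr1d2 bind RORE sequences and repress Arntl. Mouse macrophages carry such a clock, and in them REV-ERB proteins are also known to repress enhancers near inflammatory and surface receptor genes.

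Total counts per library ran from 16923982 to 23198324, and levels are given as CPM, counts relative to the scaled library size. CX3CL1 replicate 1 stood apart. In it, 1193 genes of the table had no count, where the other 8 libraries lacked 80 to 170 each. Its scaling factor of 0.849 was below their range of 0.999 to 1.05. The fit over all 9 libraries tested 12915 genes and the fit without that library tested 13245. Both are given throughout, as the fit of 9 and the fit of 8 libraries. All 10 listed macrophage markers were in the table. Their summed level was 24390 to 24848 CPM with CCL26, 28181 to 42851 CPM with CX3CL1 and 30000 to 30552 CPM with BSA, and 7 of the 10 had a log2 fold change below 0 with CCL26 against BSA in the fit of 8 libraries. Of these, 6 passed the threshold (edgeR adjusted p under 0.05), where 9.26% of all genes were called lower. Summed granulocyte markers, 8 of 10 in the table and without the defining Ly6g, were 77.9 to 83.9 CPM with CCL26, 69.4 to 182 CPM with CX3CL1 and 64.4 to 70.2 CPM with BSA. Of the erythroid and megakaryocyte list 3 of 7 genes were in the table, without Klf1. They summed to 66.6 to 73.9 CPM with CCL26, 83.9 to 261 CPM with CX3CL1 and 82.0 to 84.3 CPM with BSA. That sum was nearly all Pf4 (means of 68.2 CPM with CCL26, 144 CPM with CX3CL1 and 81.9 CPM with BSA). Without CX3CL1 replicate 1 the CX3CL1 mean of Pf4 was 86.0 CPM. In the fit of 8 libraries Pf4 was called lower with CCL26 than with BSA (log2 fold change -0.26, edgeR adjusted p = 0.00468). Itga2b and Ppbp averaged at most 0.832 CPM in any group. Of the T, NK and B cell list 2 of 9 genes were in the table, without Cd3e. They summed to 17.3 to 21.0 CPM with CCL26, 21.9 to 70.9 CPM with CX3CL1 and 23.1 to 25.5 CPM with BSA. Here the sum was nearly all Cd79b (means of 18.5 CPM with CCL26, 37.6 CPM with CX3CL1 and 23.8 CPM with BSA). Without CX3CL1 replicate 1 the CX3CL1 mean of Cd79b was 21.4 CPM, below that with BSA. In the fit of 8 libraries Cd79b was called lower with CCL26 than with BSA (log2 fold change -0.36, edgeR adjusted p = 0.0172). Cd79a averaged at most 0.762 CPM in any group. The stromal (4 of 9), dendritic (4 of 7) and mast cell, basophil or eosinophil (2 of 7) lists each summed to at most 10.2 CPM in any library. From these lists only Kit was called with CCL26 against BSA in the fit of 8 libraries (log2 fold change 1.26, edgeR adjusted p = 0.0115). The part of these markers in the clock gene results was not tested. In such bulk samples, fewer cells of a kind and less RNA per cell cannot be told apart.

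Ciart, the clock gene also known as Chrono, was the member whose log2 fold change against BSA was the largest in size with either chemokine, in both fits. It lies on chromosome 3 from 95878503 to 95882251 on the minus strand (GRCm38, GENCODE M21), and its product binds the CLOCK and BMAL1 dimer and represses it. Its level was 11.8, 14.7 and 11.7 CPM with CCL26, 17.6, 16.1 and 15.1 CPM with CX3CL1 and 27.1, 25.8 and 21.8 CPM with BSA. The groups did not overlap: every CCL26 library was below every CX3CL1 library, and every CX3CL1 library was below every BSA library. The deepest of these values rested on 528 counts, in BSA replicate 1, and the shallowest on 215, in CCL26 replicate 3. Means were 12.7 ± 1.69 CPM with CCL26, 16.3 ± 1.27 CPM with CX3CL1 and 24.9 ± 2.76 CPM with BSA (SD, n = 3 each). Without its replicate 1 the CX3CL1 mean was 15.6 ± 0.714 CPM (SD, n = 2). In the order of levels, the gene thus stood lowest with CCL26 and highest with BSA.

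**Figure D1:**
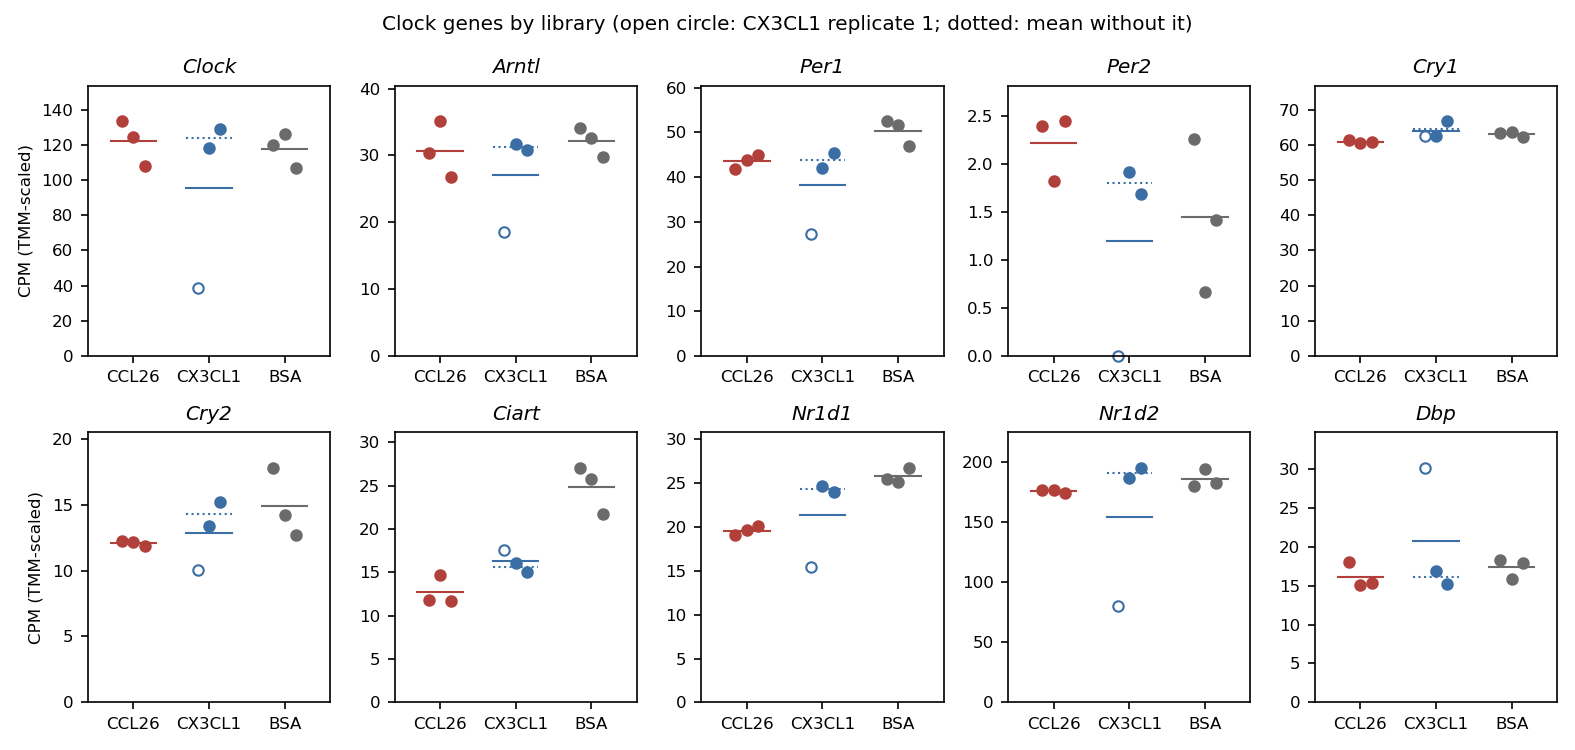
Level of each of the 10 clock genes in the 9 libraries, in CPM on linear axes that start at 0 and differ in range, with CCL26, CX3CL1 and BSA as separate groups. Each point is 1 library, lines are group means, the open circle is CX3CL1 replicate 1 and the dotted line is the CX3CL1 mean without it. Ciart falls into 3 separate levels, between 11.7 and 14.7 CPM with CCL26, 15.1 and 17.6 CPM with CX3CL1 and 21.8 and 27.1 CPM with BSA, while CX3CL1 replicate 1 lies below its group for Clock and Nr1d2 and above it for Dbp.

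The promoter windows of 4 members are printed to show where the E-boxes of these repressor genes lie. Each runs from 250 bases before to 50 bases after an annotated start, and the sequences come from RefSeq on GRCm38.p6. Capitals mark the E-box (CACGTG, the same on both strands), the E-prime box (CACGTT, printed as its other strand AACGTG where it lies there) and, in Per1, the D-box (TTANGNAA), the site of Dbp and its relatives. The windows are those of Ciart at chr3:95882179-95882478 on the minus strand, Nr1d1 at chr11:98775328-98775627 on the minus strand, Cry1 at chr10:85185005-85185304 on the minus strand and Per1 at chr11:69098699-69098998 on the plus strand.
Ciart: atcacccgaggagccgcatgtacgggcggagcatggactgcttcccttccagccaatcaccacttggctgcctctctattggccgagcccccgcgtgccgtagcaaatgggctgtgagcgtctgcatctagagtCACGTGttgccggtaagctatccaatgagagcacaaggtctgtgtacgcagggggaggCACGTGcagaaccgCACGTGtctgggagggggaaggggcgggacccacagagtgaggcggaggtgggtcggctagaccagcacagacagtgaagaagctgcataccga
Nr1d1: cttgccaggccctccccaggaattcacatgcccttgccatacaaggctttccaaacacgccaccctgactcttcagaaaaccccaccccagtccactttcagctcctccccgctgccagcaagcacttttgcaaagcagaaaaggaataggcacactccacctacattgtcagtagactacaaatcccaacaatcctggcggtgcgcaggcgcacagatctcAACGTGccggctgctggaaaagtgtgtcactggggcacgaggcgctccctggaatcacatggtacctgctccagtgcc
Cry1: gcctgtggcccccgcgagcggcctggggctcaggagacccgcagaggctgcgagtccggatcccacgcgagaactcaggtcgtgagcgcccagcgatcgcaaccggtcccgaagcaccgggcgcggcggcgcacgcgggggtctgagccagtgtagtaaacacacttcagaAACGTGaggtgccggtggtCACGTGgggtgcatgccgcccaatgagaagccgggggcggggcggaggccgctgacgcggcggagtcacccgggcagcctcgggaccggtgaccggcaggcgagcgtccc
Per1: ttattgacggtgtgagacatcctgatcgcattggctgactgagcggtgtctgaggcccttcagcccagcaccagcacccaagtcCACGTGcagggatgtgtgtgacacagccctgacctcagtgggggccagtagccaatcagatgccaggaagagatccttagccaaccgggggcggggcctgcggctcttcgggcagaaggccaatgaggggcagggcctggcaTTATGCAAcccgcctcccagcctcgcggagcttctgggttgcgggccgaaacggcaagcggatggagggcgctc
Ciart held 3 E-boxes, starting 116, 58 and 44 bases before the start. Cry1 held 1 E-box, 60 bases before the start, and 1 E-prime box 79 bases before it. Per1 held 1 E-box 166 bases and 1 D-box 24 bases before the start, and a second annotated Per1 window held none of the motifs searched. Nr1d1 held a single E-prime box, 28 bases before the start. Over all 32544 windows of the same length, both strands searched, 7.17% held an E-box and 0.0891% (29 windows) held 3 or more. An E-prime box was in 4.71% of windows and a D-box in 11.5%. Windows were given for 9 of the 10 members, 13 in all. Among the others, Cry2 held an E-prime box, 1 of 2 Arntl windows held a D-box and a RORE (the site of the REV-ERB and ROR receptors, in 0.384% of windows), and the windows of Clock, Nr1d2 and Dbp held none of these. The cyclic AMP response element TGACGTCA, in 1.80% of windows, was in none of the members' windows. These matches describe the printed letters, and no binding was measured.

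With CCL26, Ciart fell relative to BSA. Its log2 fold change was -0.97 (SE 0.158, 95% interval -1.32 to -0.61) in the fit of 9 libraries, which is 0.512 times the BSA level, with an edgeR adjusted p of 0.0435. It ranked 53 by p among 12915 genes. In the fit of 8 libraries the value was -0.96 (interval -1.22 to -0.71, edgeR adjusted p = 2.85e-06). Relative to the BSA libraries all 3 CCL26 libraries were lower. The call with 9 libraries was near the threshold. It was lost when any library other than CX3CL1 replicate 1 was left out, with adjusted p from 0.0747 (without CX3CL1 replicate 3) to 0.302 (without CCL26 replicate 1). With CX3CL1 replicate 1 left out it was kept under all 17 alternatives tried, at adjusted p up to 0.000102. Fitted on the 6 libraries of CCL26 and BSA alone, the log2 fold change was -0.97 (adjusted p = 2.98e-06).

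Nr1d1, which encodes the repressor REV-ERBα, was called lower with CCL26 than with BSA in the fit of 8 libraries only. Its levels were 19.1, 19.6 and 20.1 CPM with CCL26, 15.5, 24.7 and 24.0 CPM with CX3CL1 and 25.5, 25.1 and 26.8 CPM with BSA. The CCL26 libraries lay close together and all below the BSA libraries, while CX3CL1 replicate 1 was the lowest of all 9. The log2 fold change with CCL26 was -0.40 (SE 0.181, edgeR adjusted p = 0.832) with 9 libraries and -0.39 (SE 0.0996, interval -0.60 to -0.19, edgeR adjusted p = 0.00565) with 8. The size was nearly the same in both fits, and the standard error was larger with CX3CL1 replicate 1 among the libraries. Exons of Nr1d1 (chromosome 11 from 98767932 to 98775333, minus strand) share 263 bases, 8.55% of its exon length, with those of Thra on the opposite strand. The sources used here do not state whether strand was used in counting, so how reads of that stretch were counted is not known. Thra, the thyroid hormone receptor alpha gene, was at 7.63, 6.19 and 8.14 CPM with CCL26, 4.50, 9.09 and 11.9 CPM with CX3CL1 and 9.80, 9.38 and 11.7 CPM with BSA. It was itself lower with CCL26 than with BSA in the fit of 8 libraries (log2 fold change -0.49, SE 0.167, edgeR adjusted p = 0.0411), and its part in the Nr1d1 counts was not tested. Nr1d2, the gene of REV-ERBβ, was at 177, 177 and 175 CPM with CCL26, 80.0, 187 and 195 CPM with CX3CL1 and 180, 194 and 182 CPM with BSA. Its log2 fold change with CCL26 against BSA was -0.07 in the fit of 8 libraries (SE 0.0470, interval -0.17 to 0.02, edgeR adjusted p = 0.319).

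The period genes encode the repressors that pair with cryptochromes, and neither of the 2 was called. Per1 lies on chromosome 11 from 69095217 to 69109960 (plus strand) and was at 41.9, 43.9 and 45.0 CPM with CCL26, 27.3, 42.1 and 45.4 CPM with CX3CL1 and 52.5, 51.7 and 46.9 CPM with BSA. All CCL26 and all CX3CL1 libraries were below the lowest BSA library. With CCL26 the log2 fold change was -0.21 (SE 0.184, edgeR adjusted p of 1) with 9 libraries and -0.21 (SE 0.0776, interval -0.37 to -0.05, edgeR adjusted p = 0.0643) with 8. In the 8 libraries it passed the threshold with DESeq2 (0.0455, but 0.0526 without the DESeq2 filter on mean counts), limma-voom (0.0413) and upper quartile scaling (0.0321), and when BSA replicate 3 (0.0471) or CCL26 replicate 3 (0.0443) was left out. Per2 was the least abundant member, at 54, 38 and 45 counts with CCL26, 0, 33 and 40 counts with CX3CL1 and 44, 13 and 25 counts with BSA. The count of 0, in CX3CL1 replicate 1, allows a level of up to 0.199 CPM (3 counts of that library, counting error only). The 2.40, 1.82 and 2.44 CPM with CCL26 overlapped the 2.26, 0.663 and 1.42 CPM with BSA, and the interval of the log2 difference, -0.20 to 1.45 in the fit of 8 libraries, was too wide to place it.

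The cryptochrome genes, whose products repress CLOCK and BMAL1 together with PER, were not called. Cry1 was at 61.4, 60.5 and 60.8 CPM with CCL26, 62.6, 62.5 and 66.8 CPM with CX3CL1 and 63.4, 63.6 and 62.4 CPM with BSA. The CCL26 libraries were all below the BSA libraries, but by a log2 fold change of only -0.05 (SE 0.0656, interval -0.18 to 0.09, fit of 8 libraries). Cry2 was at 12.2, 12.1 and 11.9 CPM with CCL26, 10.1, 13.4 and 15.2 CPM with CX3CL1 and 17.8, 14.2 and 12.7 CPM with BSA. The BSA libraries of Cry2 were spread more widely than the CCL26 libraries, and all BSA libraries were above all CCL26 libraries. Its log2 fold change with CCL26 was -0.30 (SE 0.139, interval -0.59 to -0.01, edgeR adjusted p = 0.144, fit of 8 libraries), an interval that reaches from near 0 to beyond the value of Nr1d1.

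The activators were not separated between CCL26 and BSA. Clock was at 134, 125 and 108 CPM with CCL26, 38.7, 118 and 129 CPM with CX3CL1 and 120, 126 and 107 CPM with BSA. Arntl, the gene of its partner BMAL1, was at 30.3, 35.1 and 26.7 CPM with CCL26, 18.6, 31.8 and 30.8 CPM with CX3CL1 and 34.1, 32.7 and 29.7 CPM with BSA. In the fit of 8 libraries the log2 fold changes with CCL26 were 0.05 for Clock (interval -0.09 to 0.20) and -0.06 for Arntl (interval -0.27 to 0.14). Dbp, a PAR bZIP factor and a classic target of the dimer, was at 18.0, 15.1 and 15.3 CPM with CCL26, 30.1, 16.8 and 15.2 CPM with CX3CL1 and 18.3, 15.9 and 17.9 CPM with BSA. Its log2 fold change with CCL26 was -0.10 (interval -0.35 to 0.15, fit of 8 libraries). Exons of Dbp share 539 bases, 18.0% of its exon length, with those of the sphingosine kinase gene Sphk2 on the opposite strand, so the Dbp counts are uncertain. Sphk2 was itself higher with CCL26 than with BSA in the fit of 8 libraries (log2 fold change 0.32, SE 0.0840, edgeR adjusted p = 0.00828).

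Counted together, 1 of the 10 members was called with CCL26 against BSA in the fit of 9 libraries (Ciart, lower), where 0.434% of all genes tested were called and 0.0465% were called lower. In the fit of 8 libraries 2 of 10 were called (Ciart and Nr1d1, both lower), where 19.0% of all genes were called and 9.26% were called lower. The count of 2 is thus near the share of all genes called. The members were chosen with earlier results of these data known, so no count here can show an excess over that share. The CCL26 and BSA libraries did not overlap for 6 of 10 members (Ciart, Nr1d1, Per1, Cry1, Cry2 and Nr1d2, all below BSA), against 33.1% of all genes tested with 9 libraries and 32.7% with 8. The median log2 fold change over the members was -0.09 in both fits, beside medians of 0.0044 (9 libraries) and 0.0082 (8 libraries) over all genes tested.

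**Figure D2:**
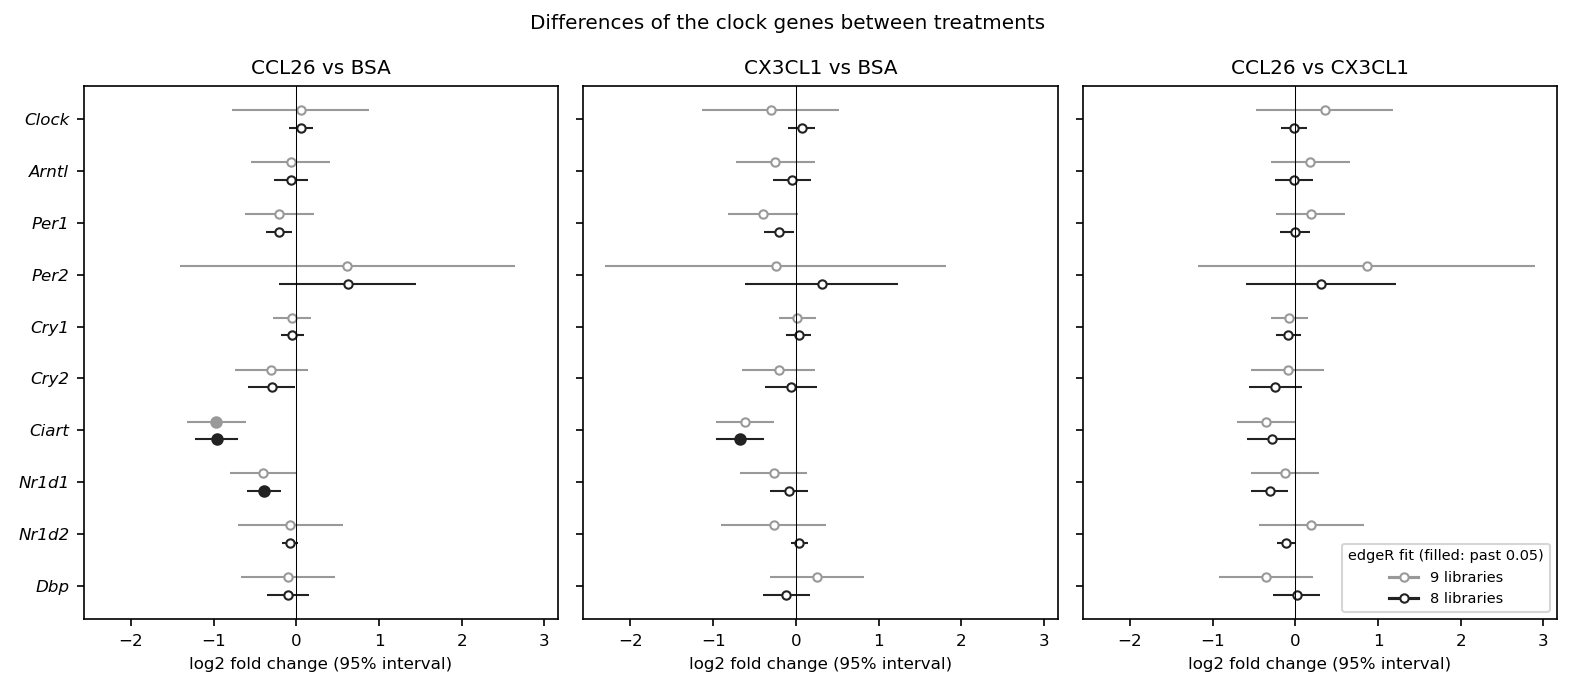
Log2 fold change of each clock gene in the 3 comparisons, with 95% intervals, from the fits of 9 libraries (grey) and of 8 (black). A value below 0 means lower in the treatment named first, and filled points have an adjusted p under 0.05. Ciart stands at -0.97 and -0.96 for CCL26 against BSA and at -0.62 and -0.68 for CX3CL1 against BSA, and the intervals of Clock and Nr1d2 are several times wider with CX3CL1 replicate 1 in the fit.

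With CX3CL1, Ciart was the member with the lowest p in both fits. Its log2 fold change against BSA was -0.62 (SE 0.157, interval -0.97 to -0.26) with 9 libraries and -0.68 (SE 0.140, interval -0.97 to -0.39) with 8, or 0.653 and 0.625 times the BSA level. With 9 libraries it ranked 5 by p among 12915 genes and missed the threshold (edgeR adjusted p = 0.711). With 8 it ranked 22 among 13245 genes and passed (edgeR adjusted p = 0.0352). The direction and size were alike with and without CX3CL1 replicate 1, since that library, at 17.6 CPM, was also below all BSA libraries. The call rested on few libraries. It was lost without BSA replicate 1, 2 or 3 (adjusted p = 0.227, 0.225 and 0.0596) and without CX3CL1 replicate 2 or 3 (0.311 and 0.535), which leaves a single CX3CL1 library assumed to vary like the other groups.

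None of the 10 members was called with CX3CL1 against BSA in the fit of 9 libraries, where 0.00% of all genes were called. There 1 member, Ciart, had an unadjusted edgeR p under 0.05, against 3.14% of all genes. DESeq2 called 0 members (0.00% of all genes) and limma-voom with quality weights called 1 (0.225% of all genes). In the fit of 8 libraries 1 of 10 was called, against 0.332% of all genes, or 0.310% called lower. As the members were chosen with earlier results of these data known, such counts cannot show an excess of clock genes. The CX3CL1 and BSA libraries did not overlap for 3 of 10 members (Ciart, Nr1d1 and Per1, all below BSA), against 11.7% of all genes tested with 9 libraries and 25.8% with 8. Per1 had log2 fold changes of -0.40 (SE 0.185) with 9 libraries and -0.20 (SE 0.0871, interval -0.38 to -0.02, edgeR adjusted p = 0.608) with 8. For Nr1d1 the value was -0.27 (SE 0.181) with 9 libraries and -0.08 (SE 0.110, interval -0.31 to 0.14) with 8. The remaining 7 members ran from -0.30 to 0.25 with 9 libraries and from -0.11 to 0.31 with 8. The median over the members was -0.26 with 9 libraries and -0.05 with 8, beside -0.0051 and -0.0015 over all genes tested.

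CX3CL1 replicate 1 differed from the other CX3CL1 libraries in opposite directions for different members. On the log2 CPM scale its departure from the mean of replicates 2 and 3 was -1.68 for Clock, -1.26 for Nr1d2, -0.75 for Arntl, -0.68 for Per1, -0.65 for Nr1d1 and -0.50 for Cry2. It was -0.05 for Cry1, 0.18 for Ciart and 0.91 for Dbp. Per2, with no count there, was at most 0.199 CPM against 1.91 and 1.69 CPM in replicates 2 and 3. Replicates 2 and 3 themselves differed by at most 0.18 on that scale for any member (Cry2, -0.18). Over all genes the departure ran with transcript length: the median over 4302 tested genes of at most 3.05 kb exon length was 0.70, and that over 4302 genes of at least 5.65 kb was -0.75. Clock has 13.7 kb of exon sequence, Arntl 7.52 kb, Cry2 6.32 kb, Per2 5.86 kb, Per1 5.63 kb, Nr1d2 5.41 kb, Cry1 3.34 kb, Nr1d1 3.08 kb, Dbp 2.99 kb and Ciart 2.26 kb. The members did not follow length throughout: Nr1d1 is shorter than Cry1 and departed further below 0, and Cry2 is longer than Nr1d2 and departed less. The part of transcript length in the values of that library was not tested.

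**Figure D3:**
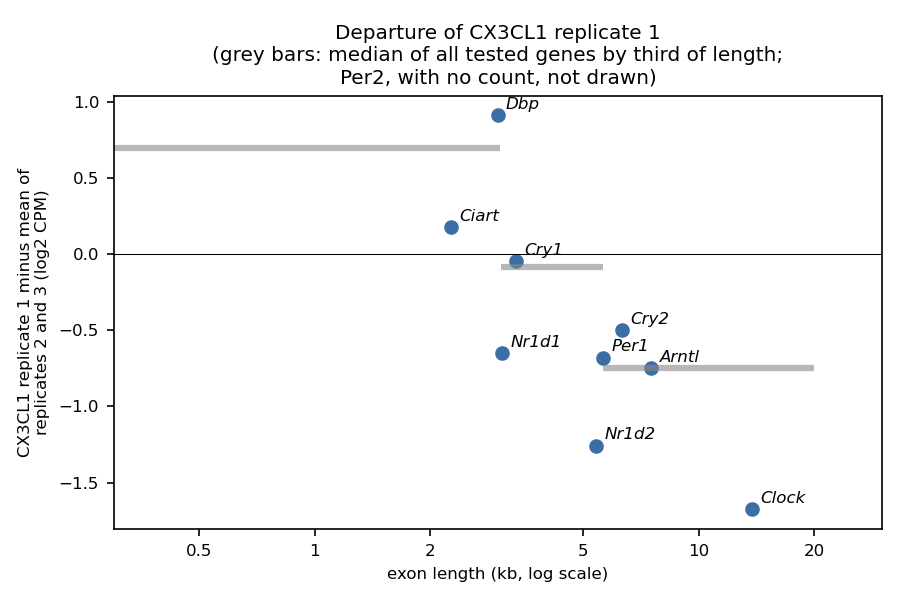
Departure of CX3CL1 replicate 1 from the mean of CX3CL1 replicates 2 and 3, in log2 CPM, against exon length in kb on a log axis, for 9 of the clock genes (Per2, with no count in that library, is not drawn). Grey bars are medians of all tested genes in the shortest, middle and longest of 3 equal groups by length, drawn within the axis. Clock, the longest at 13.7 kb, lies at -1.68 and Dbp, at 2.99 kb, at 0.91, while Ciart, the shortest at 2.26 kb, lies at 0.18.

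Between the chemokines, none of the 10 members was called in either fit, against 0.410% of all genes with 9 libraries and 10.1% with 8. Unadjusted edgeR p was under 0.05 for 0 members with 9 libraries and for 2 with 8 (Nr1d1 and Nr1d2), against 11.5% and 22.1% of all genes, and neither DESeq2 nor limma-voom with quality weights called any. Ciart was lower with CCL26 than with CX3CL1 in all libraries, by a log2 fold change of -0.35 (SE 0.158, interval -0.71 to 0.01, edgeR adjusted p = 0.423) with 9 libraries and -0.29 (SE 0.142, interval -0.58 to 0.01, edgeR adjusted p = 0.240) with 8. The intervals hold both 0 and a difference of more than 0.5, so the data do not place CCL26 and CX3CL1 apart or together for this gene. For Nr1d1 the value was -0.13 (SE 0.181) with 9 libraries and -0.31 (SE 0.111, interval -0.54 to -0.08, edgeR adjusted p = 0.0800) with 8, where the 19.1, 19.6 and 20.1 CPM with CCL26 were all below the 24.7 and 24.0 CPM of CX3CL1 replicates 2 and 3. Nr1d2 was at -0.12 (SE 0.0523, interval -0.23 to -0.01, edgeR adjusted p = 0.180) in the fit of 8 libraries. The groups did not overlap for 2 of 10 members with 9 libraries (Ciart and Cry1), against 22.6% of all genes tested, and for 5 of 10 with 8 (also Cry2, Nr1d1 and Nr1d2), against 36.8%. The median log2 fold change over the members was 0.06 with 9 libraries and -0.05 with 8, beside 0.018 and 0.0032 over all genes tested. The comparisons of each chemokine with BSA share the BSA libraries, so their values stand side by side and were not set against each other as a separate result.

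The activator Arntl gives a yardstick within each library, free of the scaling between libraries. The log2 difference of Ciart from Arntl was -1.36, -1.26 and -1.19 with CCL26, -0.08, -0.98 and -1.03 with CX3CL1 and -0.33, -0.34 and -0.45 with BSA. The CCL26 libraries were below all others, and CX3CL1 replicates 2 and 3 lay between them and BSA, while CX3CL1 replicate 1 was above BSA. In CX3CL1 replicate 1 Arntl itself departed by -0.75 and Ciart by 0.18 in log2 CPM from the mean of replicates 2 and 3. For Nr1d1 the difference from Arntl was -0.67, -0.84 and -0.41 with CCL26, -0.26, -0.37 and -0.36 with CX3CL1 and -0.42, -0.38 and -0.15 with BSA, and the CCL26 and BSA libraries overlapped. For Dbp it was -0.75, -1.22 and -0.80 with CCL26, 0.69, -0.91 and -1.01 with CX3CL1 and -0.90, -1.04 and -0.73 with BSA, with no order among the groups. The difference of Ciart from its fellow repressor Nr1d1 was -0.69, -0.42 and -0.78 with CCL26, 0.18, -0.61 and -0.67 with CX3CL1 and 0.08, 0.04 and -0.30 with BSA. All CCL26 libraries were below all BSA libraries for this pair. These differences are ratios within a library and show unequal change of the pair, not which of the pair moved.

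**Figure D4:**
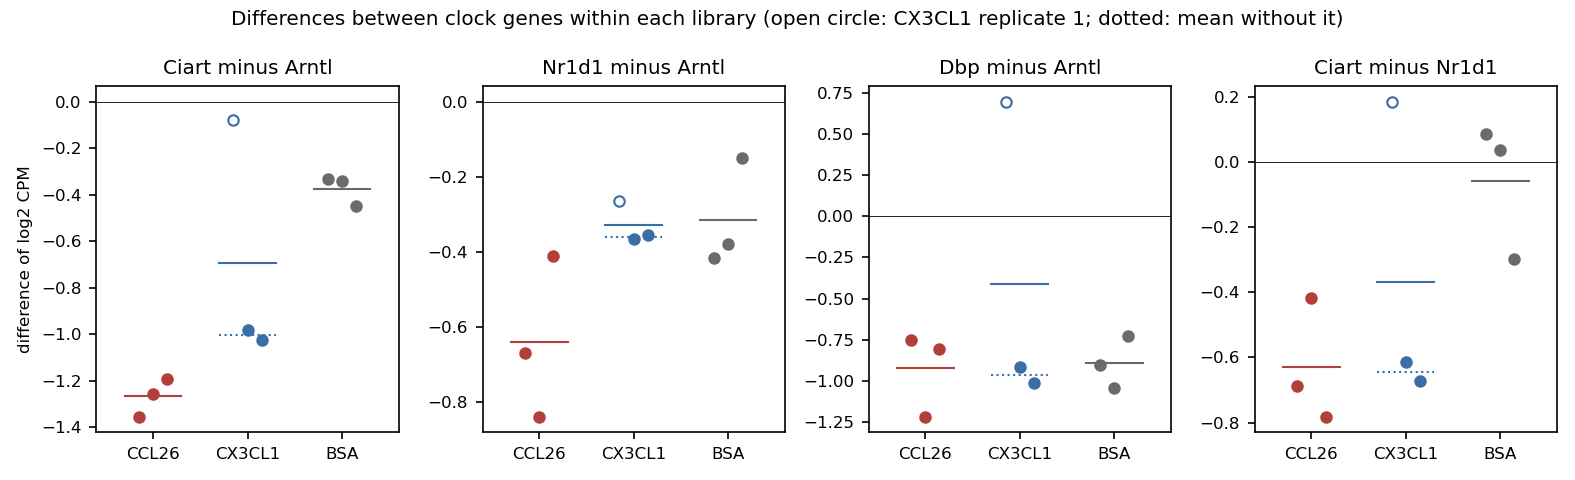
Log2 difference between pairs of clock genes within each library, with CCL26, CX3CL1 and BSA as separate groups and each point 1 library. Lines are group means, the open circle is CX3CL1 replicate 1 and the dotted line is the CX3CL1 mean without it. The difference of Ciart from Arntl lies between -1.36 and -1.19 in the 3 CCL26 libraries and between -0.45 and -0.33 in the 3 BSA libraries, and CX3CL1 replicate 1, at -0.08, is apart from CX3CL1 replicates 2 and 3.

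Levels of different genes were compared per length, as CPM per kb of exon. That length takes in every annotated exon of a gene, and which of its transcripts were present was not measured, so the order is approximate. In BSA macrophages Nr1d2 led at 34.3 ± 1.40 CPM per kb, followed by Cry1 at 18.9 ± 0.192 and Ciart at 11.0 ± 1.22 (SD, n = 3). Per1 (8.95 ± 0.538), Clock (8.58 ± 0.729) and Nr1d1 (8.39 ± 0.278) came next and overlapped from neighbour to neighbour. Dbp (5.80 ± 0.437), Arntl (4.28 ± 0.298), Cry2 (2.36 ± 0.415) and Per2 (0.247 ± 0.136) followed in that order without overlap. With CCL26 the order was the same at both ends, and Ciart, at 5.63 ± 0.748 CPM per kb, was the sixth, overlapping Nr1d1 at 6.37 ± 0.164 and Dbp at 5.39 ± 0.541 (SD, n = 3). With CX3CL1 it was the sixth at 6.89 ± 0.316 without replicate 1 (SD, n = 2). It was the third at 7.19 ± 0.564 with replicate 1 (SD, n = 3), where the members from the third to the seventh overlapped from neighbour to neighbour.

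Further clock genes were read from lists of 36 symbols sorted by role, of which 33 were in the table and all 33 were tested. With CCL26 against BSA none passed in the fit of 9 libraries, where 4 had an unadjusted edgeR p under 0.05, against 6.13% of all genes. DESeq2 called 2 there (1.92% of all genes) and limma-voom with quality weights called 7 (19.2% of all genes). In the fit of 8 libraries 3 were higher and 6 lower, 27.3% of the 33 beside 19.0% of all genes (9.74% higher and 9.26% lower). These lists too were chosen with earlier results known, so the count cannot show an excess. The median log2 fold change over the 33 was -0.04 in both fits.

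Tef, a PAR bZIP factor that binds the same D-box as Dbp, was at 76.5, 86.4 and 78.3 CPM with CCL26, 106, 104 and 101 CPM with CX3CL1 and 107, 103 and 98.7 CPM with BSA. All CCL26 libraries were below all others, and the CX3CL1 and BSA libraries overlapped. It fell with CCL26 in the fit of 8 libraries (log2 fold change -0.35, SE 0.0612, edgeR adjusted p = 0.000156) and was called under all 17 alternatives to it. Per3, a further period gene, was at 6.03, 5.42 and 7.06 CPM with CCL26, 5.76, 4.46 and 5.96 CPM with CX3CL1 and 3.44, 4.08 and 3.91 CPM with BSA. It was higher with CCL26 than with BSA, opposite to Ciart, with a log2 fold change of 0.70 (SE 0.208, edgeR adjusted p = 0.0191, fit of 8 libraries). That call was lost without BSA replicate 1 and without CCL26 replicate 3, at adjusted p up to 0.0769. Timeless, which encodes a replication fork protein, was at 25.0, 24.1 and 26.2 CPM with CCL26, 16.4, 21.3 and 21.4 CPM with CX3CL1 and 17.6, 16.8 and 15.3 CPM with BSA, a rise with CCL26 over BSA of 0.60 (SE 0.107, edgeR adjusted p = 0.000183).

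The other genes called with CCL26 against BSA in the fit of 8 libraries had smaller changes. The E-box repressor Bhlhe40, also known as DEC1, fell by 0.30 on the log2 scale (SE 0.0702, edgeR adjusted p = 0.00325), and the deacetylase gene Sirt1 fell by 0.32 (SE 0.0707, edgeR adjusted p = 0.00197). Of the 13 listed genes for enzymes that modify or degrade PER, CRY and BMAL1, 3 fell, or 23.1% beside 19.0% of all genes called in either direction and 9.26% called lower. They were the kinase genes Csnk1d (-0.15) and Gsk3b (-0.14) and the ubiquitin ligase gene Fbxw11 (-0.13). Nampt, the gene of the enzyme that limits NAD salvage and a known clock output, rose by 0.12. Tef, Timeless, Bhlhe40 and Sirt1 were called under all 17 alternatives, Gsk3b under 14, and Csnk1d, Fbxw11 and Nampt under 8 to 10 of them. Without BSA replicate 1 the count of 9 was 4, and without CCL26 replicate 2 it was 5. The share of all genes called in those fits is not given, so these lower counts are not results about the clock genes. The paralogs of the activators (Npas2 and Arntl2, 2 of 2 tested), the ROR activator gene Rora and the outputs Noct and Wee1 held no called gene.

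With CX3CL1 against BSA none of the 33 passed in either fit, where 1 had an unadjusted edgeR p under 0.05 in each, against 3.14% of all genes with 9 libraries and 7.48% with 8. Limma-voom with quality weights called none of the 33 in either fit. DESeq2 called none with 9 libraries and none of the 23 to which it gave an adjusted p with 8, and 0 of the 33 with 8 without its filter on mean counts. Between CCL26 and CX3CL1 none passed with 9 libraries, where 4 had an unadjusted edgeR p under 0.05 (11.5% of all genes), DESeq2 called 1 (1.96% of all genes) and limma-voom called 4 (10.4% of all genes). With 8 libraries 1 was higher with CCL26 than with CX3CL1 (Nampt, log2 fold change 0.18, edgeR adjusted p = 0.00526) and 3 were lower, 12.1% of the 33 beside 10.1% of all genes (5.47% higher and 4.64% lower). The lower ones were Tef (-0.35, edgeR adjusted p = 0.00102), Gsk3b (-0.15, 0.0326) and the casein kinase 2 subunit gene Csnk2b (-0.23, 0.0400). Of the 17 alternatives to that fit, Tef was called under all 17, Nampt under 16, and Gsk3b and Csnk2b under 12 each. Leaving out CX3CL1 replicate 2 or 3 there leaves a single CX3CL1 library, assumed to vary like the other groups.

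**Figure D5:**
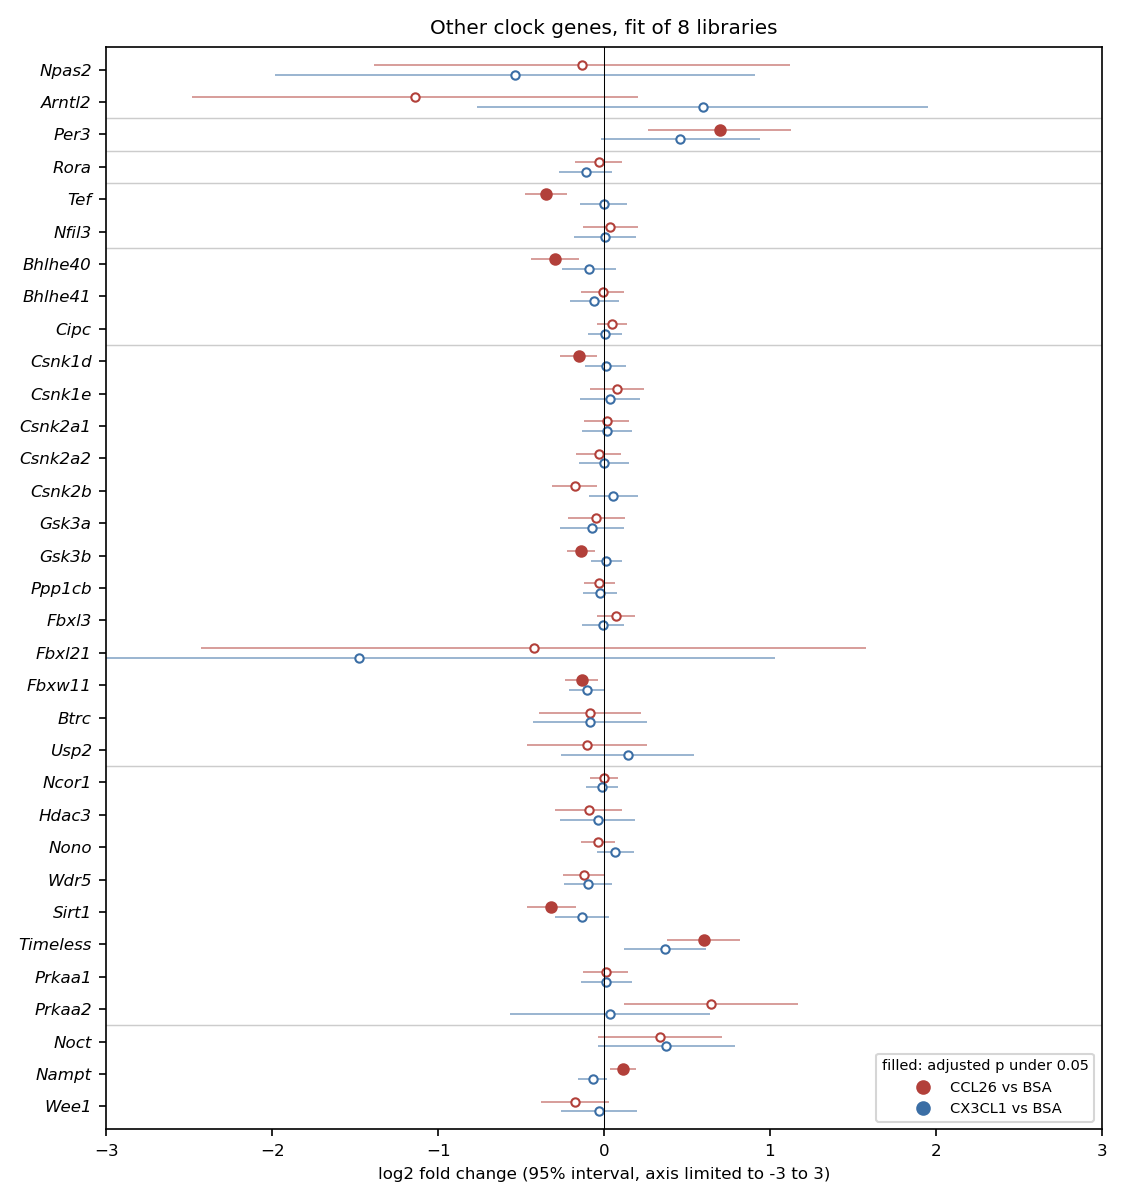
Log2 fold change with CCL26 against BSA (red) and with CX3CL1 against BSA (blue), with 95% intervals on an axis limited to -3 to 3, of the 33 other listed clock genes in the fit of 8 libraries, grouped by role. Filled points have an adjusted p under 0.05, and all 9 of them are of CCL26. For CCL26, Timeless at 0.60 and Per3 at 0.70 lie above 0 and Tef at -0.35, Sirt1 at -0.32 and Bhlhe40 at -0.30 lie below it.

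Genes of the whole table with the pattern most like that of the called members were found by the root mean square difference of centred log2 CPM over 8 libraries, among 10815 genes of at least 1 CPM. For Ciart, whose own values had a root mean square of 0.445 about their mean, they were the chemokine gene Ccl12 (difference 0.0689), the zinc finger gene Zfp948 (0.109) and Gm527 (0.138). Ccl12 averaged 11.2 CPM with CCL26, 14.4 CPM with CX3CL1 replicates 2 and 3 and 22.0 CPM with BSA. For Nr1d1, with a root mean square of 0.182, they were the cathepsin gene Ctsl (0.0273), Dad1 (0.0396) and the lysozyme gene Lyz2 (0.0423). Lyz2, a macrophage marker, averaged 18338 CPM with CCL26, 21911 CPM with CX3CL1 replicates 2 and 3 and 23484 CPM with BSA. Lyz2 was picked for its likeness to Nr1d1 in these same libraries, so the shared order of their 3 levels follows from that choice. The part of macrophage markers in the Nr1d1 values was not tested.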

How the data were processed

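Per the labels' protocols, RNA from 9 macrophage samples, 3 per treatment, was sequenced in pairs of 150 base reads on an Illumina NovaSeq. Libraries had been prepared with the NEBNext Ultra II kit, per the same protocols. The deposited values are whole-number counts of reads per gene, not normalized, in a single table that the authors had filtered by a rule the sources used here do not state. STAR, featureCounts and MultiQC were used with builds GRCm38 and mm10, per the submitters' processing notes. The sources used here do not state whether strand was used in counting. Of the 13593 genes, 1343 had no symbol and were tested under their identifiers. Pairs of libraries within a group differed by more than sampling noise. Each was counted as 1 sample, though that spread does not show that they came from separate mice or cultures.

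Counts were tested with edgeR 4.0.16 in R 4.3.3 (quasi-likelihood F test, TMM scaling, genes kept by filterByExpr with a minimum count of 10 and a minimum total of 15). One fit held all 9 libraries and one the 8 libraries other than CX3CL1 replicate 1. P-values were adjusted by the Benjamini-Hochberg method over all genes tested, with a threshold of 0.05, and SEs and 95% intervals are from the same fits. CPM used the scaled library size, and exon lengths and positions came from GENCODE M21. Depth limits low genes such as Per2, and floors cover counting error only.

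Alternatives were DESeq2 size factors or upper quartile scaling, no filter, DESeq2 1.42.0, limma-voom 3.58.1 with quality weights, the replicate number as a block, only the 2 groups compared, an adjusted p under 0.1, a prior count of 2 and each library left out in turn. DESeq2 without its filter on mean counts, and all alternatives for the other clock genes, were added after seeing the data. All 10 members were named, with every other clock gene past the threshold (at most 12 per comparison) and the 3 genes most like each called member, at a mean of at least 1 CPM. Thra and Sphk2 were named for their overlap with members, after values were seen. The members and gene lists were chosen with earlier results of these data known. Figures were drawn with matplotlib 3.10.9 in Python 3.11.15.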

Additional observations from a re-analysis of the deposited data

How the results depend on the processing

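Ciart was lower with each chemokine than with BSA under every alternative run, and it kept its call with CCL26 under all 17 alternatives to the fit of 8 libraries. Nr1d1 kept its call there under all 17 too, at adjusted p from 0.00148 to 0.0297. The replicate numbers did not pair the libraries: same-numbered libraries had correlations of -0.062 to 0.040 in their deviations from the group means. With the replicate block, Ciart had an adjusted p of 0.153 with CCL26 against BSA (9 libraries) and 0.0681 with CX3CL1 against BSA (8 libraries), so the block left 0 members called in both, against 1 without it. The block changed the count of members called in no other comparison. With upper quartile scaling Ciart narrowly missed the threshold with CCL26 against BSA in 9 libraries, and 0 members were called. DESeq2 gave Ciart no adjusted p for CX3CL1 against BSA in 8 libraries, where its filter on mean counts left 6 of 10 members without one, and an adjusted p of 0.00404 without that filter.

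Counts of members called otherwise moved as follows. With CCL26 against BSA in 9 libraries, limma-voom with quality weights called 3 members, where it called 19.2% of all genes. The fit of only these 2 groups called 2, and leaving out a library gave 0 to 2. With CX3CL1 against BSA, limma-voom called 1 in 9 libraries (0.225% of all genes), and leaving out a library gave 0 to 1 with 9 and with 8. Between CCL26 and CX3CL1 in 8 libraries, an adjusted p under 0.1 added 1, Nr1d1. Of the other clock genes with CCL26 against BSA in 9 libraries, DESeq2 called 2 with its filter (1.92% of all genes) and 2 without it. Limma-voom called 7 there (19.2% of all genes) and the fit of only 2 groups called 8. Leaving out a library gave 0 to 9, with the 9 reached without CX3CL1 replicate 1. In 8 libraries leaving out a library gave 4 to 8. DESeq2 called 10 there (19.5% of all genes) against the 9 of edgeR (19.0% of all genes). Between CCL26 and CX3CL1 in 9 libraries, DESeq2 called 1 with its filter (1.96% of all genes) and 1 without it. Limma-voom called 4 there (10.4% of all genes), and leaving out a library gave 0 to 4. In 8 libraries, against 4 with edgeR (10.1% of all genes), limma-voom called 6 (13.1% of all genes). The fit of only 2 groups called 2, and leaving out a library gave 1 to 5. The share of all genes called also moved between tools and fits, so counts given without it are not results about these genes. The cause of these moves was not tested.

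Directions that turned were all of members not called. With CX3CL1 against BSA in 9 libraries, limma-voom gave log2 fold changes of 0.060 for Clock, 0.51 for Per2, 0.032 for Nr1d2 and -0.10 for Dbp. For CCL26 against CX3CL1 it gave -0.015 for Per1, -0.11 for Nr1d2 and 0.026 for Dbp in 9 libraries, and 0.013 for Clock and 0.021 for Arntl in 8. In those 8 libraries Dbp was at -0.0043 with upper quartile scaling and -0.049 with the block. Cry2 was at 0.024 with the block for CX3CL1 against BSA in 8 libraries. Leaving out each library in turn moved log2 fold changes across 0 for these members. With CCL26 against BSA, Clock ran from -0.017 to 0.13 and Arntl from -0.17 to 0.025 in 9 libraries, and Clock from -0.015 to 0.13 and Arntl from -0.17 to 0.026 in 8. With CX3CL1 against BSA in 9 libraries, Clock ran from -0.59 to 0.071, Per2 from -0.70 to 0.31, Cry1 from -0.015 to 0.036, Nr1d2 from -0.48 to 0.044 and Dbp from -0.11 to 0.43. In 8 libraries, Arntl ran from -0.10 to 0.0020, Per2 from -0.036 to 0.80, Cry1 from -0.014 to 0.082 and Cry2 from -0.16 to 0.090. For CCL26 against CX3CL1 in 9 libraries, Clock ran from -0.017 to 0.64, Arntl from -0.020 to 0.32, Per1 from -0.0049 to 0.33, Cry2 from -0.24 to 0.046, Nr1d2 from -0.12 to 0.40 and Dbp from -0.54 to 0.016. In 8 libraries, Clock ran from -0.086 to 0.062, Arntl from -0.13 to 0.068, Per1 from -0.056 to 0.051 and Dbp from -0.071 to 0.087. No value of another clock gene that passed the threshold turned under the alternatives run. With 3 libraries a group at most, a member that missed the threshold is not shown to be unchanged.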
